A study of Homo sapiens with 9 samples.

Results

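The genes that copy the genome and open S phase were followed in HepG2, a human liver carcinoma cell line, after exposure to tris(2-butoxyethyl) phosphate (TBOEP), an organophosphate flame retardant and plasticiser. The set held 51 genes, taken by name from the 57773 features of each file, and all 51 were among the 12901 genes with enough reads to be tested. The groups were 125 µM TBOEP for 72 h in 0.1% DMSO (3 libraries), 2.5 µM TBOEP for 72 h in 0.1% DMSO (3 libraries), and 0.1% DMSO alone for 72 h as the control (3 libraries). All came from the same line, and per the labels each library came from its own seeded, treated and extracted cell population. Cells that divide less and cells that hold less of a transcript cannot be told apart in such bulk RNA.

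Before S phase, the origin recognition complex with CDC6 and CDT1 loads the MCM2-7 helicase onto DNA, and geminin blocks CDT1 once replication has begun. Cyclin E with CDK2 then drives entry into S phase, CDC45 and the GINS complex turn the loaded helicase on, and polymerases, the PCNA clamp and its RFC loader carry out synthesis. Many of these genes are known targets of E2F transcription factors, which are released from the retinoblastoma protein late in G1, and HepG2 cells divide continuously in culture.

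Libraries held from 2480964 to 11885877 gene reads, and levels are given as CPM, reads scaled to library size with trimmed mean normalisation. The members took 0.169 ± 0.0061% of gene reads at 125 µM, 0.192 ± 0.0069% at 2.5 µM and 0.164 ± 0.0125% in controls (SD, n = 3 each). Control library 1 was the lowest of its group for 37 of the 51 members, and 125 µM library 3, the shallowest of its group, was lowest for 29. Reads in introns made up 4.26% of the members' reads at 125 µM, 4.78% at 2.5 µM (3.62 to 6.28% by library) and 5.63% in controls. Over all nuclear genes they made up 5.23%, 6.00% and 6.87%, the same order, so it was not particular to the members. The 8 hepatocyte-type markers, albumin among them, summed to 38269 to 45091 CPM at 125 µM, 53175 to 65539 CPM at 2.5 µM and 64871 to 88189 CPM in controls. By edgeR, 0 of the 8 rose and 5 fell at 125 µM (62.5%, against 19.9% of all genes). At 2.5 µM 1 rose and 2 fell (12.5% and 25%, against 6.02% and 5.03% of all genes). Between the doses, 0 were higher and 6 lower at 125 µM (75%, against 7.44% of all genes). Markers of other cell types were low. The 7 fibroblast markers summed to 9.63 to 13.6 CPM at 125 µM, 18.2 to 26.8 CPM at 2.5 µM and 20.0 to 23.9 CPM in controls, and the only one with enough reads to be tested, PDGFRB, fell at 125 µM (log2 fold change -0.92 ± 0.18, adjusted p = 0.00118, edgeR) and held nearly all of that sum. The endothelial markers summed to at most 2.20 CPM at 125 µM, 2.68 CPM at 2.5 µM and 3.46 CPM in controls, and the only one tested, VWF, fell at 125 µM (-2.04 ± 0.67, adjusted p = 0.0243). VWF was not called there by DESeq2, or without control library 1 or 125 µM library 2. Its 125 µM libraries did not all lie below the controls. The 7 leukocyte markers summed to 2.20 to 3.32 CPM at 125 µM, 2.23 to 2.83 CPM at 2.5 µM and 1.03 to 3.17 CPM in controls, and KDR, PTPRC, CD3E, COL1A2, DCN, LUM and THY1 were at 0.0 CPM. The part of intron reads, marker levels or single libraries in the results was not tested.

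At 125 µM, 18 members rose, 3 fell and 30 did not pass, by edgeR's quasi-likelihood test with Benjamini-Hochberg adjustment at 0.05. Over all genes tested at that dose, 20.3% were higher and 19.9% lower, against 35.3% and 5.88% of the members. In this fit of all 9 libraries the members' rises thus stood above the background share and their falls below it. At 2.5 µM, 16 members rose, 1 fell and 34 did not pass, beside a background of 6.02% higher and 5.03% lower. The members' median log2 fold change was 0.32 at 125 µM and 0.45 at 2.5 µM, while over all genes tested it was 0.0036 and -0.0053. The 2 comparisons share the control libraries. Without control library 1 the count of rises was 6 at 125 µM and 3 at 2.5 µM, with medians of 0.15 and 0.28. Leaving out 125 µM library 2 gave 7 rises at 125 µM, and leaving out 2.5 µM library 1 or library 3 gave 9 at 2.5 µM. The share of all genes called in these fits with a library left out is not given here, so the counts have no background beside them.

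Rises passed at both doses for 12 members, namely MCM4, MCM5, MCM6, CDT1, DTL, MCM10, RFC3, RPA3, RRM1, RRM2, E2F1 and UHRF1. A rise passed at 125 µM alone for 6 members (GINS3, PRIM1, PRIM2, POLD2, POLD3 and CHAF1B) and at 2.5 µM alone for 4 (MCM2, GINS1, RPA2 and TK1). RFC1 fell at both doses, and MCM3 and GMNN fell at 125 µM with no call at 2.5 µM. The remaining 26 members passed at neither dose. Set directly against 2.5 µM, 125 µM gave 0 higher and 4 lower members (MCM2, MCM3, GMNN and RFC1), where 7.48% of all genes were higher and 7.44% lower. The 4 lower were 7.84% of the members, near the share of all genes. In that comparison edgeR found 0 higher and 6 lower members at an unadjusted p under 0.05, DESeq2 called 0 higher and 4 lower, and the members' median was -0.10.

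**Figure D1:**
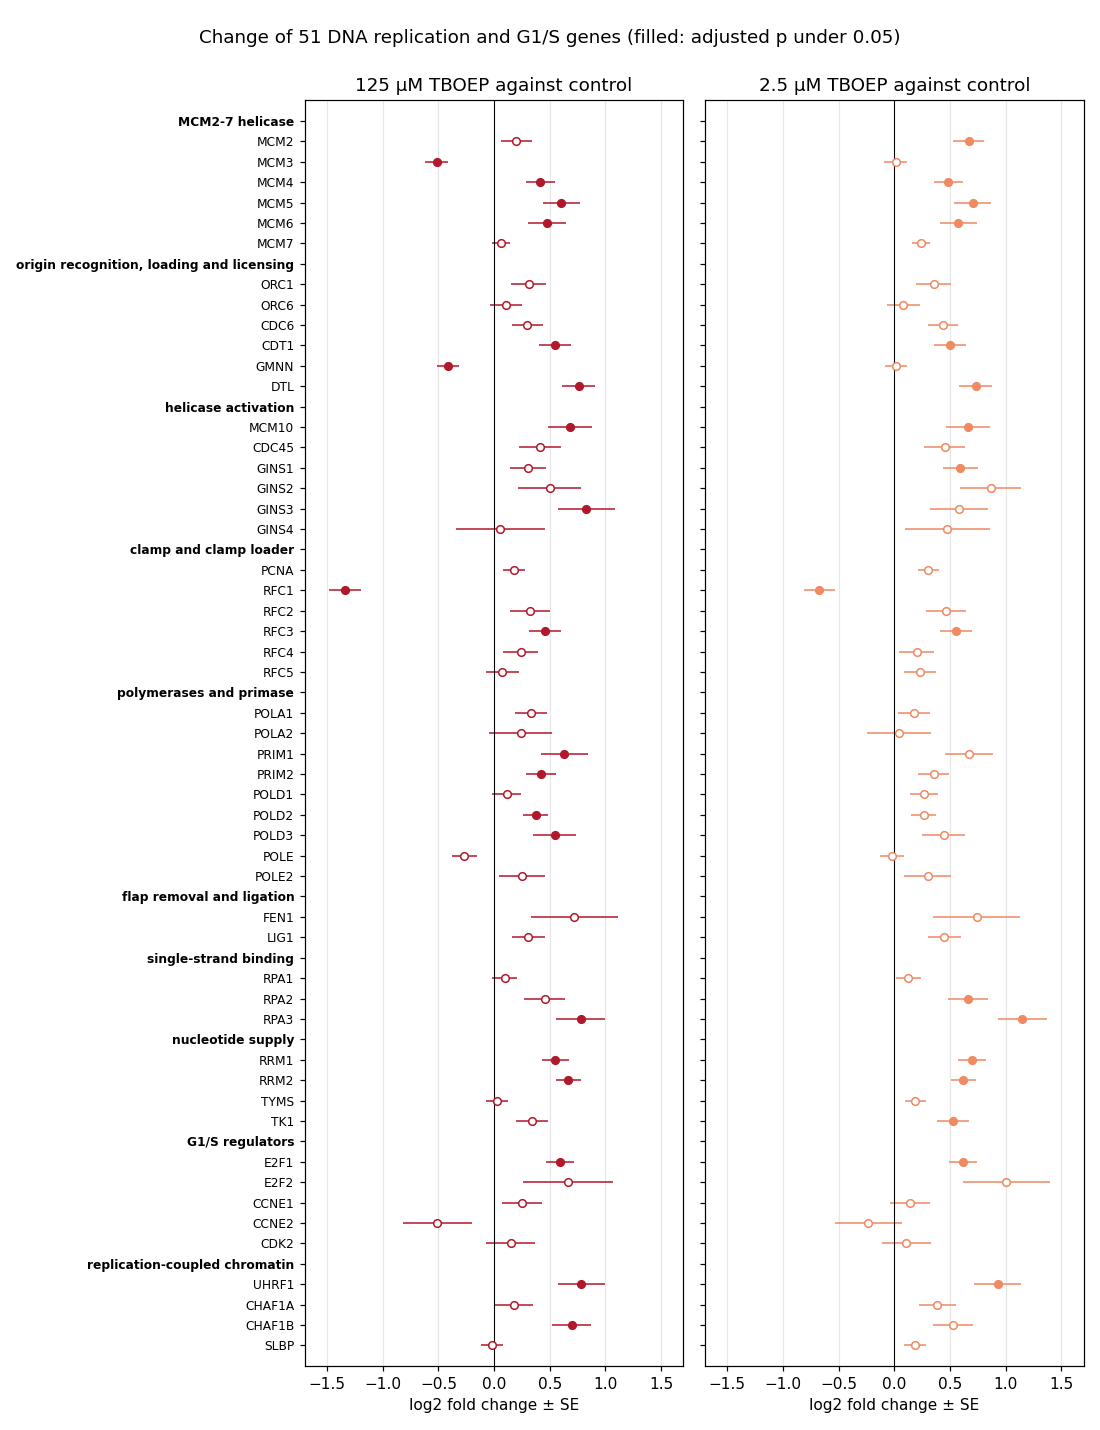
Log2 fold change with its standard error (x axis) for each of the 51 members (y axis, grouped by role), at 125 µM against control on the left and 2.5 µM against control on the right; filled points passed the adjusted threshold. Most points lie right of 0, with medians of 0.32 and 0.45, and RFC1 is the farthest to the left in both panels.

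Whether the libraries ranked by group was read from their values alone. All 125 µM libraries lay above all controls for 20 members and below for 5, against 25.6% and 25.2% of all genes, so the count of separated rises was above the background share. At 2.5 µM all libraries lay above the controls for 29 members and below for 1, against 14.4% and 13.8% of all genes. Between the doses, 125 µM lay above 2.5 µM for 2 members and below for 8, against 16.9% and 15.9% of all genes. The count below was thus near the background share.

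**Figure D2:**
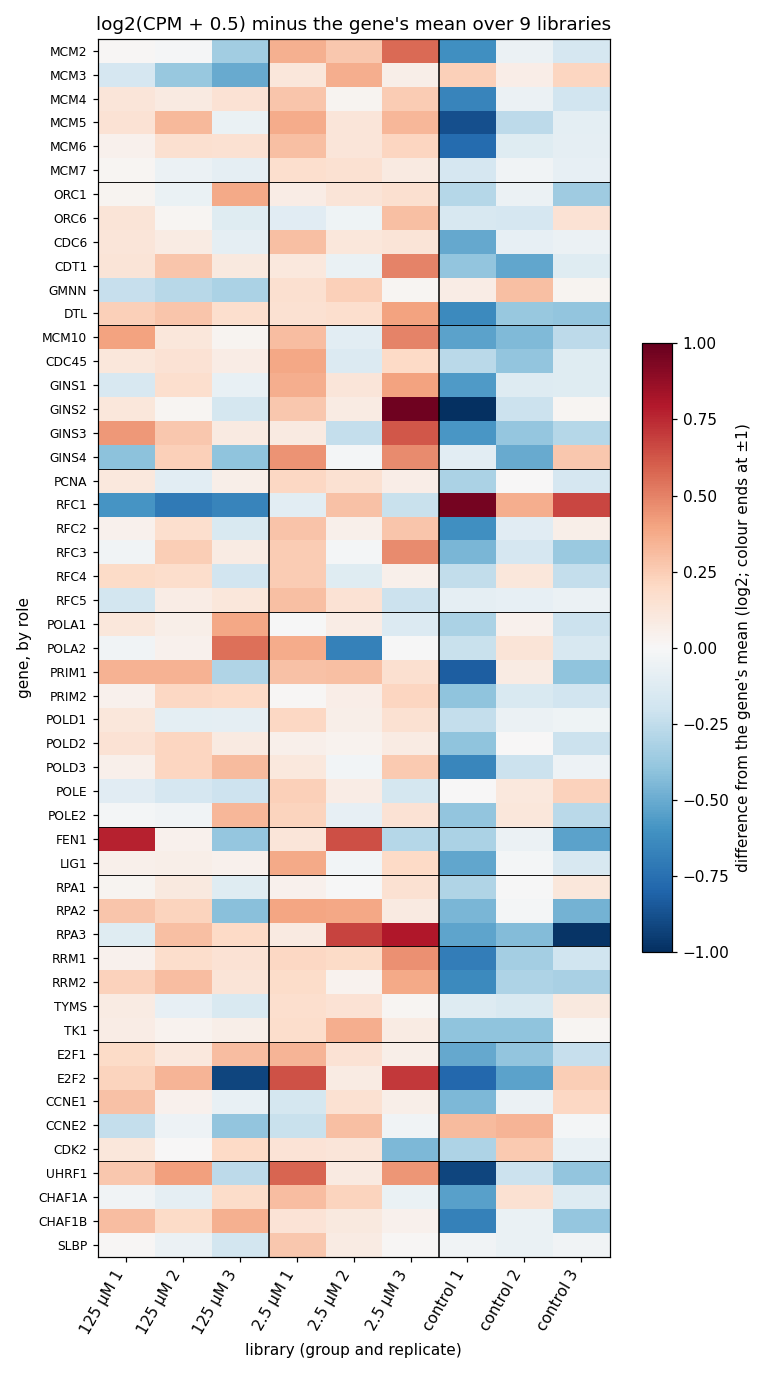
Level of each member (rows, by role) in each of the 9 libraries (columns), as log2(CPM + 0.5) minus that gene's mean over the libraries, with colour ending at a difference of 1. Control library 1 is blue (low) in most rows, being the lowest control for 37 of 51 members, and red in the row of RFC1.

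The promoter letters of members that moved together are shown because E2F and CCAAT elements are the classic features of this gene class. RefSeq windows on GRCh38.p14, 250 bases before to 50 after the start, were matched by symbol for 43 of the 51 members. Where a gene had several windows, the one at the start of its gene record was used if there was one, a rule set after a first motif count had been seen. Searched on both strands, the E2F letters TTTCCCGC, TTTGGCGC, TTTCGCGC or TTTGCCGC stood in 21 of the 43 (48.8%), against 3.31% of all 35116 windows. CCAAT stood in 23 (53.5%, against 34.6%), GGGCGG in 32 (74.4%, against 45.0%), and the cell cycle homology letters TTTGAA or TTCGAA in 2 (4.65%, against 16.4%). The 4 E2F words overlap each other where they meet on opposite strands. Of the 21 members with an E2F match, 7 rose and 1 fell at 125 µM and 8 rose and 0 fell at 2.5 µM. Of the 22 without one, 7 rose and 2 fell at 125 µM and 4 rose and 1 fell at 2.5 µM. Over all genes tested, 20.3% rose and 19.9% fell at 125 µM, and 6.02% rose and 5.03% fell at 2.5 µM. The difference between members with and without a match was not tested. These are counts of letters, with no test, and no match says only that the letters are not in the window.

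The stretches, on GRCh38.p14, are chr20:33686386-33686505 (minus strand) for E2F1, chr2:135876489-135876608 (minus strand) for MCM6, chr1:212035628-212035747 (plus strand) for DTL, chr16:88803669-88803788 (plus strand) for CDT1, chr19:4909381-4909500 (plus strand) for UHRF1, chr13:33818029-33818148 (plus strand) for RFC3, chr6:52284853-52284972 (minus strand) for MCM3, chr4:39366363-39366482 (minus strand) for RFC1 and chr6:24774817-24774936 (plus strand) for GMNN. They run 5′ to 3′ on the gene's strand and end at or before the start, with E2F and CCAAT letters on either strand in capitals. The first 6 belong to members that rose at both doses and have an E2F match, and the last 3 to the members that fell. MCM10, RRM1 and RRM2 also rose at both doses, have windows with no E2F match, and are not shown, so the stretches are examples and no contrast of risers with fallers.
E2F1: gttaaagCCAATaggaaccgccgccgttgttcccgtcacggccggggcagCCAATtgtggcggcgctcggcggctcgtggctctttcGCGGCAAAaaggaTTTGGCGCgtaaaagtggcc
MCM6: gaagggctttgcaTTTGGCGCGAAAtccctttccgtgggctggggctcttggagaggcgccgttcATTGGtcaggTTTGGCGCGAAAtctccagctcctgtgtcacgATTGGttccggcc
DTL: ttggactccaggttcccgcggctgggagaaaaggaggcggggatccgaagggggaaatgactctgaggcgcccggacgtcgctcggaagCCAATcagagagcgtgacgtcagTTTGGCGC
CDT1: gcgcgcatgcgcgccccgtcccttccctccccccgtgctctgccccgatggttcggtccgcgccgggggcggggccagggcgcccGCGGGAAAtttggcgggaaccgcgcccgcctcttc
UHRF1: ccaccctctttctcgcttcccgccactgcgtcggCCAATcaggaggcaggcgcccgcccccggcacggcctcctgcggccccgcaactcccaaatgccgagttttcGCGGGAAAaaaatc
RFC3: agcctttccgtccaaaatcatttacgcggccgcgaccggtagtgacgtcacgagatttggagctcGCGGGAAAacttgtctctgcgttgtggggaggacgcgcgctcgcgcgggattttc
MCM3: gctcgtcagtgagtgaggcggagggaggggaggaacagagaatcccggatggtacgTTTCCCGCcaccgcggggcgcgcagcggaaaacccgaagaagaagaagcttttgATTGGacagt
RFC1: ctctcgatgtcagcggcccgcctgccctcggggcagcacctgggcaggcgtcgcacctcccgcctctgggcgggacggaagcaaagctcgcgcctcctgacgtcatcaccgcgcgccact
GMNN: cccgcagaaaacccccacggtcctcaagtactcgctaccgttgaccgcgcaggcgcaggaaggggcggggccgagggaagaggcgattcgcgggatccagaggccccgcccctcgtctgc
MCM6 carries paired matches of opposite strands that overlap. MCM3, although it fell at 125 µM, holds an E2F match 174 bases before its start and another nearer the start, outside the stretch. The stretches of RFC1 and GMNN hold neither element, but the window of RFC1 has a CCAAT outside the stretch.

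Among the subunits of the MCM2-7 helicase, the ring that unwinds DNA at the fork, 3 of 6 rose and 1 fell at 125 µM. At 2.5 µM, 4 rose and 0 fell. The rises were 50% of the group at 125 µM and 66.7% at 2.5 µM, against 20.3% and 6.02% of all genes. The fall at 125 µM was 16.7%, against 19.9%. With 2 to 9 genes each, the role groups are too small for such shares to be more than a description. At an unadjusted p under 0.05 edgeR gave 5 higher and 0 lower at 2.5 µM, and DESeq2 called 3 and 0. MCM4 stood at 92.0, 89.7 and 93.2 CPM at 125 µM, 102, 86.2 and 101 CPM at 2.5 µM, and 53.3, 81.3 and 73.9 CPM in controls. Its treated libraries all lay above the controls. The log2 fold change was 0.41 ± 0.13 (adjusted p = 0.0195) at 125 µM and 0.48 ± 0.13 (adjusted p = 0.0287) at 2.5 µM. MCM5 stood at 44.3, 50.2 and 38.2 CPM at 125 µM, 51.7, 43.5 and 50.5 CPM at 2.5 µM, and 21.5, 33.2 and 37.2 CPM in controls. Here too neither dose overlapped the controls, with control library 1 well below the other 2 controls. The change was 0.60 ± 0.17 (adjusted p = 0.01) at 125 µM and 0.70 ± 0.17 (adjusted p = 0.0184) at 2.5 µM. MCM6, whose promoter carries the overlapping pairs shown above, stood at 20.0, 21.7 and 21.7 CPM at 125 µM, 24.0, 21.2 and 22.6 CPM at 2.5 µM, and 11.2, 17.8 and 18.2 CPM in controls. Every treated library exceeded every control. The change was 0.47 ± 0.17 (adjusted p = 0.0339) at 125 µM and 0.57 ± 0.17 (adjusted p = 0.0391) at 2.5 µM.

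MCM2 followed the lower dose only, at 60.4, 59.4 and 47.0 CPM at 125 µM, 76.8, 72.2 and 89.3 CPM at 2.5 µM, and 39.1, 57.6 and 53.4 CPM in controls. The 2.5 µM libraries lay above all others, while the 125 µM libraries overlapped the controls. Its change was 0.20 ± 0.14 (adjusted p = 0.271) at 125 µM, 0.67 ± 0.14 (adjusted p = 0.0108) at 2.5 µM and -0.47 ± 0.14 (adjusted p = 0.0317) at 125 µM against 2.5 µM. Its span overlaps TPRA1, so reads of the 2 genes may not be fully separated. MCM7, which overlaps AP4M1, changed by 0.06 ± 0.08 (adjusted p = 0.585) at 125 µM and 0.24 ± 0.08 (adjusted p = 0.0664) at 2.5 µM and did not pass. Without control library 1, the adjusted p at 125 µM was 0.11 for MCM4, 0.0557 for MCM5 and 0.258 for MCM6. At 2.5 µM it was 0.0537 for MCM2, 0.138 for MCM4, 0.0911 for MCM5 and 0.244 for MCM6. Leaving out any 125 µM library ended the call of MCM6 at both doses (adjusted p 0.0538 to 0.116), as did leaving out any 2.5 µM library at 2.5 µM (0.0503 to 0.0928). Leaving out 125 µM library 1 or 2 (0.0538 and 0.0502) ended the call of MCM4 at 125 µM. Without 125 µM library 2, MCM5 did not pass at 125 µM (0.0696). Leaving out 2.5 µM library 1, 2.5 µM library 3 or control library 3 ended the call of MCM4 at 2.5 µM (0.0549 to 0.0808). Of the 125 µM against 2.5 µM comparison, MCM2 lost its call without any 1 of the 125 µM libraries, 2.5 µM library 1 or 2.5 µM library 3 (0.0635 to 0.109).

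MCM3 was the MCM2-7 subunit that fell at 125 µM, where MCM4, MCM5 and MCM6 rose and MCM2 and MCM7 did not pass. On chr6:52128807-52149679 of hg19, minus strand, it stood at 184, 159.7 and 146 CPM at 125 µM, 224, 267 and 216 CPM at 2.5 µM, and 244, 218 and 241 CPM in controls. The 125 µM libraries lay below all 6 others, and the 2.5 µM libraries overlapped the controls. Its change was -0.51 ± 0.10 (adjusted p = 0.0014) at 125 µM, 0.01 ± 0.10 (adjusted p = 0.957) at 2.5 µM and -0.53 ± 0.10 (adjusted p = 0.004) at 125 µM against 2.5 µM. Both its falls passed under all 20 alternatives tried. Per length, MCM3 was also the most abundant of the 6 subunits in every group, with 43.9 ± 1.90% of their summed RPKM at 125 µM, 49.1 ± 4.15% at 2.5 µM and 56.8 ± 4.85% in controls (SD, n = 3 each; a share computed after MCM3's values were seen).

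Of 6 genes of origin recognition, loading and licensing, 2 rose and 1 fell at 125 µM, and 2 rose and 0 fell at 2.5 µM. For 2.5 µM edgeR gave 4 higher and 0 lower at an unadjusted p under 0.05, and DESeq2 called 2 and 0. At 125 µM 33.3% were thus higher and 16.7% lower, against 20.3% and 19.9% of all genes. At 2.5 µM 33.3% were higher, against 6.02%. CDT1, which brings the helicase to the origin, stood at 31.9, 35.4 and 31.2 CPM at 125 µM, 31.5, 27.8 and 41.2 CPM at 2.5 µM, and 22.0, 20.2 and 26.7 CPM in controls. All treated libraries exceeded all controls, the nearest pair being 27.8 CPM at 2.5 µM and 26.7 CPM in a control. Its change was 0.54 ± 0.14 (adjusted p = 0.00778) at 125 µM and 0.50 ± 0.15 (adjusted p = 0.0396) at 2.5 µM. DTL, the substrate receptor of the ubiquitin ligase that removes CDT1 in S phase, stood at 15.4, 15.9 and 14.7 CPM at 125 µM, 14.5, 14.7 and 17.4 CPM at 2.5 µM, and 8.18, 9.89 and 9.75 CPM in controls. Neither dose came near the controls. The change was 0.76 ± 0.15 (adjusted p = 0.001) at 125 µM and 0.73 ± 0.15 (adjusted p = 0.00983) at 2.5 µM.

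GMNN encodes geminin, the inhibitor of CDT1, and moved the other way at the higher dose. On chr6:24775159-24786327 of hg19, plus strand, it stood at 48.3, 46.6 and 45.5 CPM at 125 µM, 63.4, 66.9 and 57.4 CPM at 2.5 µM, and 59.9, 70.0 and 57.7 CPM in controls. The 125 µM libraries were below all others, and the other 2 groups overlapped. Its change was -0.41 ± 0.10 (adjusted p = 0.00386) at 125 µM, 0.02 ± 0.10 (adjusted p = 0.941) at 2.5 µM and -0.43 ± 0.10 (adjusted p = 0.00888) at 125 µM against 2.5 µM. The ratio of CDT1 to GMNN, in CPM and computed after their values were seen, was 0.661, 0.760 and 0.685 at 125 µM, 0.496, 0.415 and 0.718 at 2.5 µM and 0.368, 0.288 and 0.462 in controls. The 125 µM and control ratios did not overlap, which follows from the values of CDT1 and GMNN above and adds nothing to them. The 2.5 µM ratios overlapped both. ORC1 (0.31 ± 0.16 at 125 µM), ORC6 (0.11 ± 0.15) and CDC6 (0.30 ± 0.14) did not pass at either dose, CDC6 being at the threshold at 2.5 µM (0.44 ± 0.13 (adjusted p = 0.05)).

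The calls of CDT1, DTL and GMNN at 125 µM against control passed under all 20 alternatives. At 2.5 µM the call of CDT1 was lost without 125 µM library 1 (adjusted p = 0.0553), 125 µM library 3 (0.0545), 2.5 µM library 1 (0.0604), 2.5 µM library 3 (0.114), control library 1 (0.166) or control library 2 (0.0793). That of DTL was lost without control library 1 (0.072), and the fall of GMNN between the doses without 125 µM library 2 (0.0508) or 2.5 µM library 2 (0.0531).

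**Figure D3:**
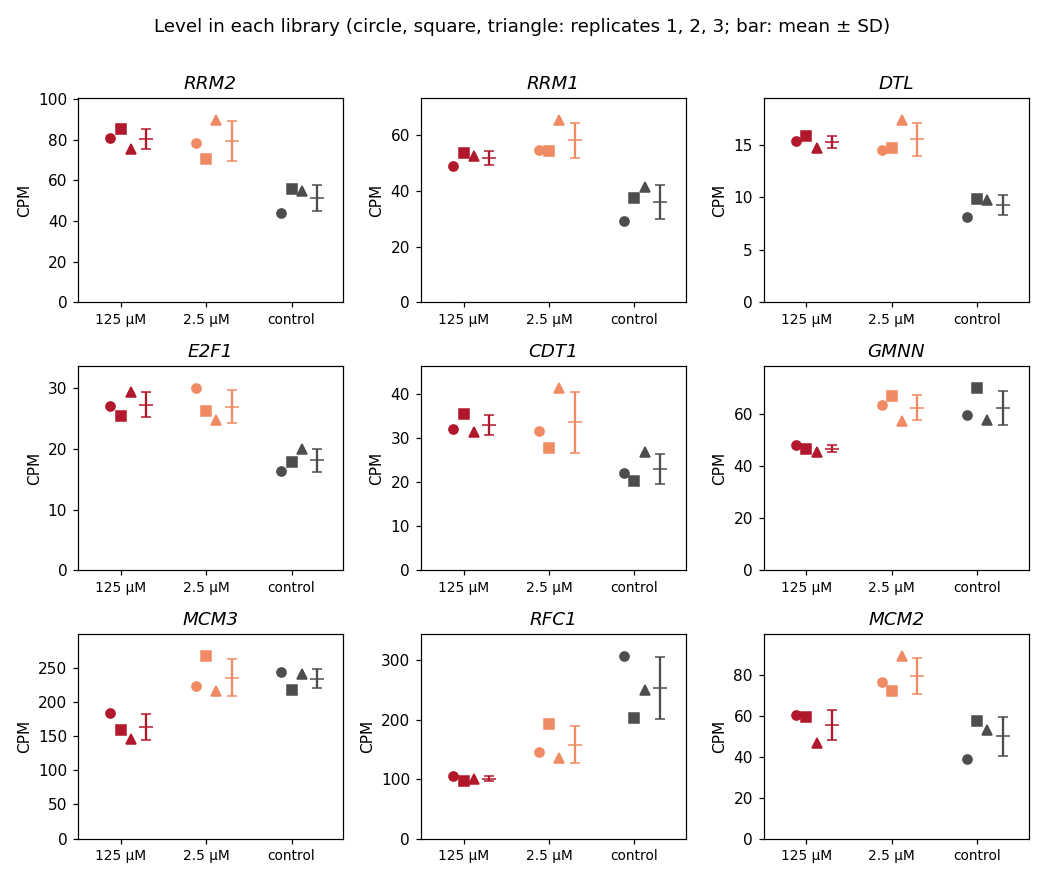
Level in CPM (y axis, from 0) of 9 members in each library of the 125 µM, 2.5 µM and control groups (x axis); marker shapes are replicates 1 to 3 and the bar is the mean ± SD of 3 libraries. RRM2, RRM1, DTL, E2F1 and CDT1 sit above the controls at both doses, GMNN and MCM3 sit below at 125 µM only, RFC1 steps down with dose to 96.8 to 105 CPM at 125 µM, and MCM2 is highest at 2.5 µM.

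The genes that switch the loaded helicase on were higher in 2 of 6 cases at each dose, with none lower. Those 2 of 6 were 33.3%, against 20.3% of all genes at 125 µM and 6.02% at 2.5 µM. At an unadjusted p under 0.05 edgeR gave 3 higher and 0 lower at 125 µM and 5 and 0 at 2.5 µM. DESeq2 called 1 and 0 at 125 µM, and 2 and 0 at 2.5 µM. MCM10, which helps activate the helicase, stood at 12.5, 10.1 and 9.54 CPM at 125 µM, 11.7, 8.64 and 13.3 CPM at 2.5 µM, and 6.29, 6.73 and 7.70 CPM in controls. All treated libraries exceeded the controls. The change was 0.68 ± 0.20 (adjusted p = 0.013) at 125 µM and 0.66 ± 0.20 (adjusted p = 0.0448) at 2.5 µM. GINS3, a subunit of the GINS complex, stood at 6.67, 5.89 and 5.14 CPM at 125 µM, 5.16, 4.00 and 7.68 CPM at 2.5 µM, and 3.04, 3.56 and 3.85 CPM in controls. Its libraries did not overlap the controls at either dose, although 3.997 and 3.848 CPM at 2.5 µM and in a control were close. It changed by 0.83 ± 0.25 (adjusted p = 0.0172) at 125 µM and 0.58 ± 0.26 (adjusted p = 0.162) at 2.5 µM. GINS1, another subunit, stood at 16.3, 20.5 and 17.3 CPM at 125 µM, 23.6, 19.9 and 24.2 CPM at 2.5 µM, and 12.2, 16.6 and 16.7 CPM in controls. Only the 2.5 µM libraries were clear of the controls, with changes of 0.30 ± 0.16 (adjusted p = 0.147) at 125 µM and 0.59 ± 0.16 (adjusted p = 0.0283) at 2.5 µM.

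GINS2, whose span overlaps GSE1, GINS4, at 0.989 to 2.42 CPM, and the helicase cofactor CDC45 passed at neither dose, with log2 fold changes of 0.06 to 0.50 at 125 µM and 0.45 to 0.87 at 2.5 µM. GINS2, at 0.87 ± 0.27 (adjusted p = 0.0544) at 2.5 µM, passed as higher there with DESeq2, with no filter, on exon reads, with the replicate block, and without 2.5 µM library 2, control library 2 or control library 3. Without control library 1, adjusted p was 0.0679 for MCM10 and 0.098 for GINS3 at 125 µM, and 0.217 for MCM10 and 0.196 for GINS1 at 2.5 µM. At 125 µM, leaving out 125 µM library 1 ended the calls of MCM10 (0.0717) and GINS3 (0.0722), and 125 µM library 2 that of GINS3 (0.0511). At 2.5 µM, 2.5 µM library 1 and 2.5 µM library 3 each ended the call of GINS1 (0.0728 and 0.0772). Leaving out any library but 2.5 µM library 2 ended that of MCM10 at 2.5 µM (0.0536 to 0.217).

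The clamp loader held the fall of largest size among the 51 members. RFC1, the large subunit that opens PCNA and sets it on DNA, lies on chr4:39289076-39367995 of hg19, minus strand, and stood at 105, 96.8 and 99.8 CPM at 125 µM, 146, 193 and 135 CPM at 2.5 µM, and 307, 204 and 251 CPM in controls. The 3 groups did not overlap, with 125 µM lowest and control highest. Its level was 2.53-fold lower at 125 µM, and the log2 change was -1.34 ± 0.15 (adjusted p = 1.44e-05) at 125 µM, -0.67 ± 0.14 (adjusted p = 0.0113) at 2.5 µM and -0.67 ± 0.15 (adjusted p = 0.00719) at 125 µM against 2.5 µM. The fall at 125 µM against control passed under all 20 alternatives. That at 2.5 µM did not pass without control library 1 (adjusted p = 0.0614), the control with the highest level. On log2(RPKM + 0.5) and log2(RPKM + 0.1) with limma it did not pass either (adjusted p 0.0664 and 0.0689). Nor did the fall between the doses pass on those scales (0.0559 and 0.0581). By length, RFC1 made up 39.4 ± 2.71% of the summed RPKM of the 5 RFC subunits at 125 µM, 48.7 ± 7.34% at 2.5 µM and 66.8 ± 6.61% in controls (SD, n = 3 each; computed after its values were seen).

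RFC3, a small subunit of the same complex, rose, standing at 26.1, 31.7 and 28.3 CPM at 125 µM, 31.8, 26.3 and 37.2 CPM at 2.5 µM, and 19.3, 23.7 and 20.5 CPM in controls. Treated and control libraries did not overlap. It changed by 0.46 ± 0.14 (adjusted p = 0.0188) at 125 µM and 0.55 ± 0.14 (adjusted p = 0.0246) at 2.5 µM. Introns held 31.2% of its reads at 125 µM and 31.5% in controls, and on exon reads alone its adjusted p at 125 µM was 0.057. PCNA itself was the member with the highest level per length, at 108 RPKM at 125 µM, 115 RPKM at 2.5 µM and 91.8 RPKM in controls, and changed by 0.18 ± 0.10 (adjusted p = 0.158) at 125 µM and 0.31 ± 0.10 (adjusted p = 0.0536) at 2.5 µM. RFC2, RFC4 and RFC5 did not pass; RFC4 overlaps EIF4A2 and RFC5 overlaps WSB2. RFC3 lost its call at 125 µM without 125 µM library 2 (0.12) or control library 1 (0.0996), and at 2.5 µM without 2.5 µM library 1 (0.0555), 2.5 µM library 3 (0.0762), control library 1 (0.143) or control library 3 (0.0671).

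Polymerases and primase gave 4 rises of 9 genes at 125 µM and none at 2.5 µM. The rises at 125 µM were 44.4% of the group, against 20.3% of all genes. At an unadjusted p under 0.05 edgeR gave 5 higher and 1 lower at 125 µM and 5 and 0 at 2.5 µM. DESeq2 called 1 higher at 125 µM and 0 at 2.5 µM. With DESeq2, PRIM1, PRIM2 and POLD3 did not pass at 125 µM (adjusted p 0.0591, 0.103 and 0.121). The difference in counts between the doses was not itself tested. PRIM1, the catalytic primase subunit, stood at 19.8, 19.8 and 12.5 CPM at 125 µM, 19.0, 19.1 and 17.4 CPM at 2.5 µM, and 8.49, 16.4 and 11.5 CPM in controls. A 125 µM library, at 12.5 CPM, fell among the controls. The change was 0.63 ± 0.21 (adjusted p = 0.028) at 125 µM and 0.67 ± 0.21 (adjusted p = 0.0536) at 2.5 µM. Its span overlaps NACA. PRIM2, the regulatory primase subunit, stood at 16.4, 18.4 and 18.4 CPM at 125 µM, 16.1, 16.7 and 18.6 CPM at 2.5 µM, and 12.0, 14.2 and 13.9 CPM in controls. No treated library overlapped the controls. It changed by 0.42 ± 0.14 (adjusted p = 0.0224) at 125 µM and 0.35 ± 0.14 (adjusted p = 0.105) at 2.5 µM.

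Of polymerase delta, which extends the lagging strand, 2 accessory subunits rose at 125 µM. POLD2 stood at 40.4, 42.7 and 38.9 CPM at 125 µM, 37.9, 37.6 and 38.8 CPM at 2.5 µM, and 27.6, 36.6 and 31.6 CPM in controls, and POLD3 at 9.34, 10.5 and 11.4 CPM at 125 µM, 9.75, 8.83 and 10.9 CPM at 2.5 µM, and 5.56, 7.72 and 8.72 CPM in controls. Treated libraries lay above the controls for both. The closest pairs at 2.5 µM were 8.83 against 8.72 CPM for POLD3 and 37.6 against 36.6 CPM for POLD2. At 125 µM they were 9.34 against 8.72 CPM and 38.9 against 36.6 CPM. The changes at 125 µM were 0.37 ± 0.11 (adjusted p = 0.0148) for POLD2 and 0.54 ± 0.19 (adjusted p = 0.0347) for POLD3, and those at 2.5 µM were 0.26 ± 0.11 (adjusted p = 0.138) and 0.45 ± 0.19 (adjusted p = 0.149). None of these genes passed between the doses. POLE, the leading strand polymerase, was the polymerase with a negative change at 125 µM (-0.27 ± 0.11 (adjusted p = 0.0676)), and passed as lower on exon reads, with only the 2 groups fitted, and without 2.5 µM library 1. POLA1, POLA2, POLD1 and POLE2 did not pass. Without control library 1, adjusted p at 125 µM was 0.191 for PRIM1, 0.132 for PRIM2, 0.106 for POLD2 and 0.244 for POLD3, and without 125 µM library 2 it was 0.131, 0.104, 0.0771 and 0.116. PRIM1 also lost its call without 125 µM library 1 (0.105) or control library 3 (0.0662), and POLD3 without 125 µM library 3 (0.0737).

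RRM1 and RRM2, the members that encode ribonucleotide reductase, the enzyme that makes deoxynucleotides, rose at both doses. RRM2, the small subunit, lies on chr2:10262455-10271545 of hg19, plus strand, and stood at 80.8, 85.2 and 75.2 CPM at 125 µM, 78.2, 70.5 and 89.7 CPM at 2.5 µM, and 44.1, 55.6 and 54.9 CPM in controls. All treated libraries lay above all controls, by 70.5 against 55.6 CPM at the closest. It changed by 0.67 ± 0.11 (adjusted p = 0.000358) at 125 µM and 0.62 ± 0.11 (adjusted p = 0.00792) at 2.5 µM. RRM1, the large subunit, stood at 49.0, 53.8 and 52.5 CPM at 125 µM, 54.8, 54.4 and 65.4 CPM at 2.5 µM, and 29.3, 37.4 and 41.3 CPM in controls. The same separation held. The change was 0.55 ± 0.12 (adjusted p = 0.00276) at 125 µM and 0.70 ± 0.12 (adjusted p = 0.00733) at 2.5 µM. At 125 µM both subunits passed under all 20 alternatives, and at 2.5 µM both did except on log2 RPKM (adjusted p 0.059 to 0.064). RRM2B, which encodes an alternative small subunit and is no member, stood at 34.6, 40.6 and 42.9 CPM at 125 µM, 39.4, 47.4 and 51.7 CPM at 2.5 µM, and 58.8, 51.1 and 52.1 CPM in controls. It fell at 125 µM (-0.48 ± 0.12, adjusted p = 0.00489) and did not pass at 2.5 µM (-0.26 ± 0.12, adjusted p = 0.162); it is named after its values were seen.

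TK1, which salvages thymidine, stood at 18.9, 18.3 and 18.7 CPM at 125 µM, 20.3, 23.2 and 19.0 CPM at 2.5 µM, and 13.4, 13.5 and 18.2 CPM in controls. Its 125 µM libraries were near one another at 18.3 to 18.9 CPM, just above control library 3 at 18.2 CPM, and the 2.5 µM libraries were higher again. The change was 0.34 ± 0.14 (adjusted p = 0.0743) at 125 µM and 0.52 ± 0.14 (adjusted p = 0.0311) at 2.5 µM. The call at 2.5 µM was lost without 2.5 µM library 2 (0.108), 2.5 µM library 3 (0.0525), control library 1 (0.18) or control library 2 (0.0537). TYMS, the thymidylate synthase gene, which overlaps C18orf56 and ENOSF1, changed by 0.02 ± 0.10 (adjusted p = 0.869) at 125 µM and 0.19 ± 0.10 (adjusted p = 0.222) at 2.5 µM.

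All 3 subunits of the single-strand binding complex RPA had positive changes at both doses, and RPA3 passed at both. RPA3, the smallest, had the largest rise of any member at 2.5 µM, standing at 10.2, 13.9 and 12.8 CPM at 125 µM, 11.9, 18.0 and 19.8 CPM at 2.5 µM, and 7.55, 8.11 and 5.39 CPM in controls. Treated libraries did not overlap the controls. The change was 0.78 ± 0.22 (adjusted p = 0.0126) at 125 µM and 1.15 ± 0.22 (adjusted p = 0.00864) at 2.5 µM. The span of RPA3 overlaps RPA3-AS1. RPA2 stood at 17.6, 16.9 and 10.6 CPM at 125 µM, 19.1, 19.0 and 15.4 CPM at 2.5 µM, and 10.4, 14.2 and 10.3 CPM in controls. A 125 µM library lay among the controls and none of the 2.5 µM libraries did. It changed by 0.46 ± 0.18 (adjusted p = 0.0607) at 125 µM and 0.66 ± 0.18 (adjusted p = 0.0323) at 2.5 µM. RPA1, the largest subunit, whose span overlaps SMYD4, changed by 0.09 ± 0.11 (adjusted p = 0.53) and 0.12 ± 0.11 (adjusted p = 0.507). Without 125 µM library 2 the rise of RPA3 at 125 µM did not pass (0.0832), and that of RPA2 at 2.5 µM did not without 2.5 µM library 1 (0.0723), 2.5 µM library 2 (0.0778), control library 1 (0.171) or control library 3 (0.0921). The flap nuclease gene FEN1, at 1.28 to 3.88 CPM and overlapping FADS2 and TMEM258, and the ligase gene LIG1 did not pass.

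Among the 5 regulators of G1/S, E2F1 passed as higher at both doses and the others at neither. That was 20% of the group at each dose, near the 20.3% of all genes at 125 µM and against 6.02% at 2.5 µM. At an unadjusted p under 0.05 edgeR gave 1 higher and 0 lower at 125 µM and 2 and 0 at 2.5 µM. DESeq2 called 1 and 0 at each dose. On chr20:32263489-32274210 of hg19, minus strand, E2F1 stood at 26.9, 25.4 and 29.4 CPM at 125 µM, 29.9, 26.1 and 24.6 CPM at 2.5 µM, and 16.4, 17.8 and 20.0 CPM in controls. Treated libraries lay between 24.6 and 29.9 CPM and controls between 16.4 and 20.0 CPM. It changed by 0.59 ± 0.13 (adjusted p = 0.00194) at 125 µM and 0.62 ± 0.13 (adjusted p = 0.0101) at 2.5 µM, and the call at 2.5 µM was lost without control library 1 (0.0697). The E2F1 window itself holds 2 E2F matches, shown above. E2F2, at 1.10 to 4.44 CPM, the cyclin E genes CCNE1 and CCNE2, and CDK2 did not pass at either dose. E2F2 had values of 0.66 ± 0.40 (adjusted p = 0.204) at 125 µM and 1.01 ± 0.39 (adjusted p = 0.106) at 2.5 µM (unadjusted p = 0.0208), above those of E2F1 with wider errors, and passed as higher at 2.5 µM when no filter on low counts was used. CCNE2, whose span overlaps INTS8 and NDUFAF6, had the most negative value of these 4 at 125 µM (-0.51 ± 0.31 (adjusted p = 0.208)).

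Of 4 genes that rebuild chromatin behind the fork, 2 rose at 125 µM and 1 at 2.5 µM. These were 50% and 25% of the group, against 20.3% and 6.02% of all genes. UHRF1, which recognises hemimethylated DNA and recruits DNMT1, stood at 21.5, 23.7 and 14.7 CPM at 125 µM, 26.8, 18.9 and 24.2 CPM at 2.5 µM, and 9.12, 15.2 and 13.3 CPM in controls. A 125 µM library (14.7 CPM) lay under the highest control (15.2 CPM), and the 2.5 µM libraries lay above all controls. Its change was 0.78 ± 0.21 (adjusted p = 0.00833) at 125 µM and 0.93 ± 0.21 (adjusted p = 0.0148) at 2.5 µM. CHAF1B, a subunit of the assembly factor that deposits histones, stood at 12.7, 11.7 and 13.2 CPM at 125 µM, 11.3, 11.0 and 10.5 CPM at 2.5 µM, and 6.19, 9.70 and 7.70 CPM in controls. No treated library overlapped a control, with 0.70 ± 0.18 (adjusted p = 0.00621) at 125 µM and 0.52 ± 0.18 (adjusted p = 0.0704) at 2.5 µM. It overlaps MORC3. CHAF1A, its partner, which overlaps UBXN6, and SLBP, which binds histone mRNA, did not pass. Without control library 1, adjusted p was 0.0655 for UHRF1 and 0.0578 for CHAF1B at 125 µM and 0.105 for UHRF1 at 2.5 µM, and without 125 µM library 2 it was 0.0641 for UHRF1.

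The wider pathway was read from lists of 115 other replication, S phase and G1/S genes, of which 107 were tested. At 125 µM 27 rose (25.2%, against 20.3% of all genes) and 12 fell (11.2%, against 19.9%). At 2.5 µM 20 rose (18.7%, against 6.02%) and 2 fell (1.87%, against 5.03%). The counts without control library 1 were 19 and 8 at 125 µM, and 3 and 0 at 2.5 µM, again with no share of all genes beside them. Nucleotide supply outside the members held the most rises at 125 µM, with 8 rises and 2 falls of 17 (47.1% and 11.8%, against 20.3% and 19.9% of all genes). The rises were led by DCK, the deoxycytidine kinase gene (log2 fold change 1.24 ± 0.16, adjusted p = 6.51e-05), and NME1, a nucleoside diphosphate kinase gene (0.90 ± 0.14, adjusted p = 0.000164). NME1 overlaps NME2 and a read-through gene, so its reads may be shared. Of 8 other polymerase and lagging strand genes 5 rose at 125 µM (62.5%, against 20.3% of all genes), led by KIAA0101, a PCNA binding protein (0.93 ± 0.19). The pre-replicative complex list had 1 rise and 2 falls of 10 at that dose, and origin firing 2 and 1 of 15. G1/S control had 3 and 4 of 25, replication-coupled chromatin 1 and 1 of 12, and CDK inhibitors 0 and 1 of 4. In these lists 0 to 13.3% rose, below the 20.3% of all genes. In the first of them ORC3 rose (0.78 ± 0.17), and CDC7 and ORC2 fell (-0.75 ± 0.17 and -0.32 ± 0.10). In G1/S control, CDK4 rose at both doses (0.58 ± 0.11 and 0.38 ± 0.11), while TFDP2 and TFDP1, the DNA binding partners of E2F, fell at 125 µM (-0.97 ± 0.16 and -0.48 ± 0.10).

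CCND1, the cyclin that pairs with CDK4, was at 193, 214 and 206 CPM at 125 µM, 172, 194 and 225 CPM at 2.5 µM and 144, 156 and 162 CPM in controls, and rose at both doses (0.41 ± 0.10 and 0.35 ± 0.10). CCNA2, cyclin A, rose at 2.5 µM (0.50 ± 0.10) and was lower at 125 µM than at 2.5 µM (-0.38 ± 0.10). DCK, KIAA0101, CDK4, CCND1 and CCNA2 each overlap another tested gene (for CDK4, MARCH9 and TSPAN31), so reads may be shared there too. MYC (0.15 ± 0.09 and 0.18 ± 0.09) and the inhibitor CDKN1A (-0.05 ± 0.11 and -0.28 ± 0.11) did not pass at either dose. Of the 44 G2/M and mitosis genes, listed for comparison with the members, 0 rose and 9 fell at 125 µM, 2 rose and 0 fell at 2.5 µM, and 0 were higher and 16 lower at 125 µM than at 2.5 µM. The falls at 125 µM were 20.5% of the list, near the 19.9% of all genes, the rises at 2.5 µM were 4.55%, against 6.02%, and 36.4% were lower at 125 µM than at 2.5 µM, against 7.44%. At an unadjusted p under 0.05 edgeR gave 2 and 11, 15 and 0, and 0 and 29, and DESeq2 called 0 and 8, 2 and 0, and 0 and 12. Their medians were -0.10, 0.18 and -0.33, beside 0.32, 0.45 and -0.10 for the members; the difference between the lists was not tested. MKI67, the proliferation marker of this list, was at 115, 104 and 108 CPM at 125 µM, 124, 149 and 143 CPM at 2.5 µM and 132, 137 and 143 CPM in controls, and fell at 125 µM (-0.33 ± 0.09, adjusted p = 0.00937).

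**Figure D4:**
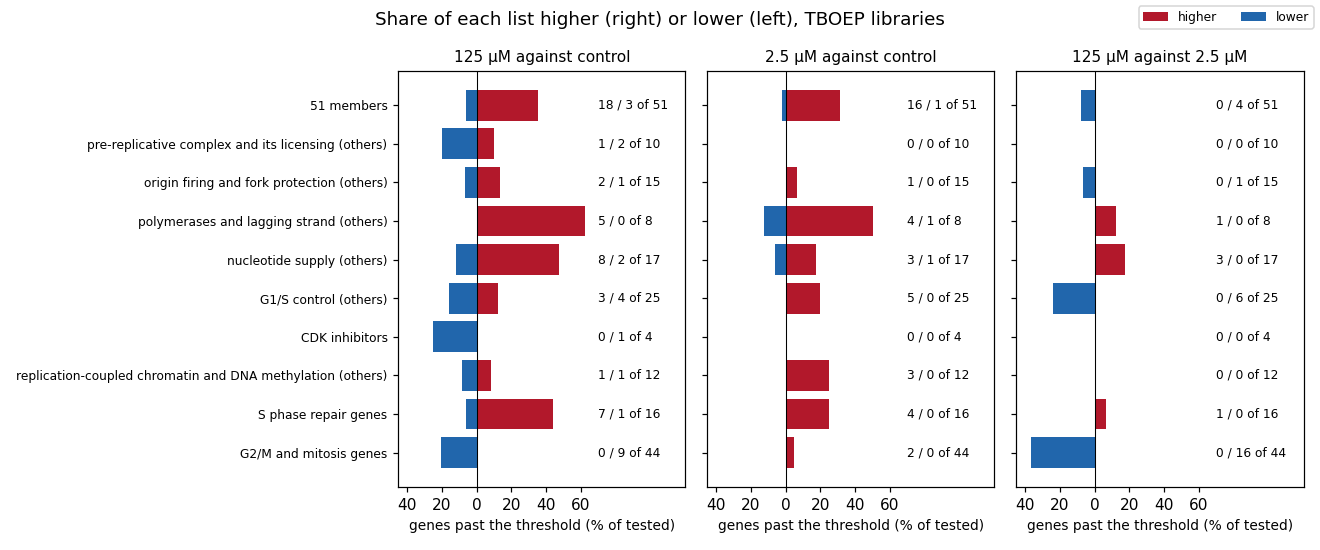
Share of each list's tested genes that passed as higher (bars to the right) or lower (bars to the left), in % (x axis), for the members and the other lists (y axis) in the 3 comparisons; counts higher / lower of tested stand at the right. The members reach 18 / 3 of 51 at 125 µM, 16 / 1 at 2.5 µM and 0 / 4 between the doses, and the G2/M list reaches 0 / 9, 2 / 0 and 0 / 16 of 44.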

How the data were processed

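RNA of 9 HepG2 cultures was sequenced from a stranded mRNA kit as 50 base paired ends. Alignment to hg19 and assignment to genes used CLC Genomics Workbench, per the labels' design text. Its version is not given in the sources used here, nor is use of strand in counting. The deposited read counts per gene are whole numbers, and the deposited RPKM values are scaled to exon length and library size by the authors, whereas the quantile normalisation named in the labels was not used here. The deposited exon length was used only for checks. Names and levels were taken from the files. Adding 1 to the deposited start made it equal the GENCODE start for 68.8% of matched names, against 1.15% as given, so 1 was added.

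Total gene reads (exon and intron) were filtered with filterByExpr, scaled by TMM and fitted with edgeR 4.0.16 (quasi-likelihood, R 4.3.3) over all 9 libraries in 3 groups with no covariate, with Benjamini-Hochberg adjustment over 12901 genes and a threshold of 0.05. The biological coefficient of variation was 10.0%. Fits were tested on simulated data. Alternatives used DESeq2 1.42.0, other scalings, filters and read types, a replicate block, limma 3.58.1 on log2(RPKM + 0.5) or log2(RPKM + 0.1), and each library left out. Members, lists and tests were chosen with earlier results of these data known. Every member is accounted for: those past the threshold against control have every library's value, and others are given by range and count. From each other list, up to 4 called genes, those of lowest adjusted p, could be named, plus CDKN1A, CCND1, CCNA2, MKI67 and MYC. Precision is limited by counting in the shallowest library, 2480964 reads, where 3 reads equal 1.21 CPM.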

Additional observations from a re-analysis of the deposited data

How the results depend on the processing

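Of 42 calls of single members over the 3 comparisons, each tried under 20 alternatives, 692 of 840 results kept their call, 148 kept their direction without passing, and 0 reversed. Calls that passed under all alternatives numbered 8 of 21 at 125 µM against control (MCM3, CDT1, GMNN, DTL, RFC1, RRM1, RRM2 and E2F1), 0 of 17 at 2.5 µM against control, and 1 of 4 (MCM3) at 125 µM against 2.5 µM. Leaving out 1 library gave 6 to 22 members higher and 3 to 4 lower at 125 µM against control, 3 to 21 higher and 0 to 1 lower at 2.5 µM against control, and 0 higher and 2 to 4 lower at 125 µM against 2.5 µM. The lowest counts came without control library 1 (6 and 3 higher) and without 125 µM library 2 (7 higher, and 2 lower than 2.5 µM). At 125 µM, DESeq2 called 13 members higher, without GINS3, MCM6, POLD3, PRIM1 and PRIM2. On each RPKM scale 13 were higher at 125 µM, 12 of them among the 18 of the main fit. Those lost on both were MCM4, MCM5, MCM6, PRIM1, RFC3 and UHRF1, and TK1 joined. At 2.5 µM, 10 members were higher when only the 2 groups were fitted, 1 on log2(RPKM + 0.5) and 0 on log2(RPKM + 0.1), with 0 lower on both RPKM scales. On both RPKM scales 2 members were lower at 125 µM than at 2.5 µM. The median at 125 µM was 0.44 on log2(RPKM + 0.1). Members that joined the 16 higher at 2.5 µM were CDC6, CHAF1B, GINS2 and PRIM1 on exon reads (20 in all), CDC6, MCM7, PCNA and PRIM1 with upper-quartile scaling (20 in all), and CDC6, E2F2, GINS2, LIG1, PCNA and PRIM1 with no filter (22 in all). The cause was not tested. A replicate block gave 18 higher and 3 lower, 17 and 1, and 0 and 4, against 18 and 3, 16 and 1, and 0 and 4 without it. Same-numbered libraries deviated together with correlations of -0.24 to 0.18, so the numbers were not taken to pair the libraries. Depth limits GINS4, E2F2, FEN1 and CCNE2, each below 5 CPM in every library.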

Other observations

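Other S phase genes that the account above does not name also moved. Of 16 S phase repair genes, 7 rose and 1 fell at 125 µM (43.75% and 6.25%, against 20.3% and 19.9% of all genes). At 2.5 µM 4 rose and 0 fell (25% and 0%, against 6.02% and 5.03%). For 2.5 µM edgeR gave 9 higher and 0 lower at an unadjusted p under 0.05, and DESeq2 called 1 and 0. BRCA1, of homologous recombination, rose by 0.60 ± 0.14 at 125 µM and 0.52 ± 0.14 at 2.5 µM on the log2 scale, BLM, a helicase gene, rose by 0.96 ± 0.24 at 125 µM, and USP1, a deubiquitinase gene, fell by 0.77 at 125 µM (SE 0.18). Without control library 1 the rises were 3 at 125 µM and 0 at 2.5 µM, with no share of all genes for that fit beside them.

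Outside the members, the genes whose log2 CPM followed the members' mean most closely over the 9 libraries were APOC3 (Pearson r = 0.96), KHK (0.96), FGD4 (0.95), KLHL7 (0.95) and SCARB1 (0.95). They were picked as the highest of all genes tested, all genes share each library's depth and scaling, and no test was made. APOC3, an apolipoprotein gene, averaged 61.7 CPM at 125 µM, 65.8 CPM at 2.5 µM and 43.0 CPM in controls.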
